A study of Mus musculus with 26 samples.

Results

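The transcripts described here are those encoded by the mitochondrial genome of the mouse. They were taken by position, as every gene of the count table that lies on the mitochondrial chromosome (chrM), which gave 37 of 55401 genes. The 37 are 13 protein-coding genes, 2 ribosomal RNA (rRNA) genes and 22 transfer RNA (tRNA) genes. The rule uses position alone. A low-count filter left 16 for testing, namely the 13 protein-coding genes, both rRNA genes and the single tRNA gene mt-Tp. The other 21 tRNA genes had too few counts.

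Liver RNA was sequenced from male C57BL/6 mice that all began a high-fat diet (HFD) when 4 weeks old and stayed on it for 18 weeks. The series design text also names cholesterol in the diet, and the labels call the animals MASLD mice, for a metabolic fatty liver disease. The untreated HFD group has 9 libraries. The UCMSC-Exos group has 8 libraries from mice on the same diet that were given exosomes (small membrane vesicles that cells release) derived from UCMSC cells. These went into the tail vein at intervals of 72 hours over 8 weeks. The labels give the untreated mice no injection, and the effects of the exosomes, of being injected and of cage or cohort cannot be told apart. The labels plan 9 mice per group but do not tie libraries to mice or say what a replicate number marks, so the p-values measure the spread between these libraries. The LSCR group of 9 samples was not analysed here.

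The mitochondrial genome is a small circle that is read from both strands into long transcripts. Their tRNAs sit between the other genes and are cut out, which frees the messenger and ribosomal RNAs. All of its proteins are core subunits of the respiratory chain or of ATP synthase, and each works beside many subunits encoded in the nucleus and imported. In liver these complexes carry the oxidation of fatty acids to the making of ATP.

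Total counts ran from 32941467 to 36065074 per library. Hepatocyte markers were high throughout, with 10 genes summing to 39950 to 85780 CPM, the counts scaled to a common library size. They were higher in the treated libraries other than 9 (63300 to 85780 CPM) than in the 7 untreated libraries other than 3 and 9 (44280 to 60100 CPM). Untreated HFD 3 held 14040 CPM of 12 pancreatic acinar markers, against 11.9 to 16.5 CPM in the 7 untreated libraries other than 3 and 9. Its Ctrb1 and Pnlip, digestive enzymes of the pancreas, were at 4172 and 2198 CPM, and the median of both in those 7 libraries was 0. Untreated HFD 9 held 12490 CPM of 8 skeletal muscle markers, against 0.992 to 1.72 CPM in the same 7. Its Acta1, the actin of skeletal muscle, was at 4260 CPM, and its Ckm, the creatine kinase of muscle, at 918 CPM. UCMSC-Exos 9 held 585 CPM of 7 cholangiocyte markers and 1808 CPM of 7 stellate cell markers, where the 7 other treated libraries held 48.6 to 127 and 482 to 670 CPM. It also had the lowest hepatocyte marker sum of the treated group, 47370 CPM, inside the range of the 7 untreated libraries other than 3 and 9. Those 7 held 119 to 522 CPM of the cholangiocyte markers. B and plasma cell markers summed to 79.2 to 147 CPM in the treated libraries and 17.4 to 35.6 CPM in the 7 untreated ones. Igha, Igkc and Jchain had medians of 47.5, 41.3 and 12.0 CPM treated and 2.17, 5.77 and 1.47 CPM in those 7. The other members of that list differed less, such as Ighm (17.6 against 13.3 CPM) and Cd79b (1.61 against 2.03 CPM). Erythroid markers summed to 197 to 346 CPM in the treated libraries other than 9 and to 71.5 to 137 CPM in those 7, and stellate cell markers to 482 to 670 against 726.5 to 1425 CPM. Of the adipocyte list Car3, also a liver gene, had medians of 1737 CPM treated and 606 CPM in those 7, and Adipoq, Plin1 and Lep had medians of 0 in both. The part of any of these cells in the results was not tested. Results are given with and without untreated HFD 3 and 9. In such bulk samples fewer mitochondria, fewer cells of a type and less RNA per cell cannot be told apart.

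How far a mitochondrial gene can be counted at all depends on its sequence and on its neighbours. The reads were counted with no multi-mapping reads and with none that overlap more than 1 gene, and without regard to strand. Sequences are given for 3 situations where these rules may bear on the count, 5′ to 3′ on the gene's own strand. They are from GENCODE vM21 transcripts on GRCm38 (the assembly of mm10). All 37 positions in that annotation equal those in the deposited table.

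The first pair are tRNA genes that lie side by side, shown because 1 had counted reads and the other had none. The cause of this difference was not tested. mt-Tp, the tRNA for proline, spans chrM:15356-15422 on the minus strand, and mt-Tt, the tRNA for threonine, spans chrM:15289-15355 on the plus strand. Each is 67 bases long, and capitals mark the anticodon, bases 3 to 5 of the 7-base loop in the middle.
mt-Tp: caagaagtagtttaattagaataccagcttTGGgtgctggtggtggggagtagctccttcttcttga
mt-Tt: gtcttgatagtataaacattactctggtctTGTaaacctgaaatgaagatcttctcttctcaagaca

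mt-Tp had 17097 reads over the 17 libraries, and mt-Tt had 0. mt-Tt has a neighbour with 0 bases between on either side, mt-Cytb before it and mt-Tp after it. mt-Tp has mt-Tt on 1 side and no further annotated gene on the other, where the noncoding control region lies. Of the 22 tRNA genes, 18 had no read in any library. Of those 18, 17 had at most 5 bases between them and the annotated gene on either side. The other, mt-Tf, the tRNA for phenylalanine, starts at base 1, so it borders the control region on 1 side as mt-Tp does, and it had 0 reads too. mt-Tc, mt-Tn and mt-Tv, the tRNAs for cysteine, asparagine and valine, had 12, 2 and 1 reads in all libraries together. mt-Tc and mt-Tn have 32 bases between them. A count of 0 allows 3 reads, or 0.0704 to 0.103 CPM in these libraries. These values limit the counted reads only and say nothing of the amount of tRNA in the tissue.

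The second pair shows a nuclear copy of mitochondrial DNA. The stretch from 24611535 to 24616197 on chromosome 1 holds 7 pseudogenes on the minus strand that match mitochondrial genes. mt-Nd3 is shown as an example of a gene that lies wholly in the copied stretch, from base 1 to base 150 (chrM:9459-9608), above its copy Gm28438 (chr1:24612970-24613119). Capitals mark bases that differ, and there is 1 in 150.
mt-Nd3: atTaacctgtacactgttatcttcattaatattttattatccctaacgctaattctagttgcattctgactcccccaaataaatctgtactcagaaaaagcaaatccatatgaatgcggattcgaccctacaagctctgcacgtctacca
Gm28438: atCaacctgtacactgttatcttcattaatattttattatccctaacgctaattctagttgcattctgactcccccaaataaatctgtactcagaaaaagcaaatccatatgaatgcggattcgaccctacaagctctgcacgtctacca

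The edge of the copy falls inside mt-Co1, of which bases 1054 to 1173 (chrM:6381-6500) are shown above the first 120 bases of Gm29216 (chr1:24616078-24616197). The 6 differing bases, in capitals, all fall near the start, where the copy begins.
mt-Co1: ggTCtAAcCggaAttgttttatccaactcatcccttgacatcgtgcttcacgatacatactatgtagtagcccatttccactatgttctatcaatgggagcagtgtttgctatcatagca
Gm29216: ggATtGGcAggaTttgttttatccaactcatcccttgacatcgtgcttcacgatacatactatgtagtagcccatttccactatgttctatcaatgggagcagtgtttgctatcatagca

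Within the part that local alignment matched, 6 of the 7 pseudogenes had no base that differed from the mitochondrial gene. For mt-Co2, mt-Atp6, mt-Co3, mt-Nd3 and mt-Nd4l the aligned part covered 98.3% to 99.9% of the gene. It covered 63.6% of mt-Nd4, which leaves 502 bases outside, and 31.3% of mt-Co1, which leaves 1061. mt-Atp8 has no annotated pseudogene and lies between mt-Co2 and mt-Atp6, whose copies are both in the stretch. It also shares 43 of its 204 bases with mt-Atp6.

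The third pair is mt-Nd5 and mt-Nd6, which are read from opposite strands and share their last 14 bases, shown in capitals at the end of the last 60 bases of each (chrM:13506-13565 on the plus strand and chrM:13552-13611 on the minus strand). mt-Nd6 is the only protein-coding gene here that is read from the other strand. Since counting took no account of strand, reads of mt-Nd6 cannot be told apart from reads of the opposite strand's long transcript.
mt-Nd5: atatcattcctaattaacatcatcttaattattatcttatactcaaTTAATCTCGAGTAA
mt-Nd6: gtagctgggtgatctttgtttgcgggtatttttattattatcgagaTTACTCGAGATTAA

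Levels were compared between genes as CPM per kb of gene length, over the 7 untreated libraries other than 3 and 9. mt-Co1, the catalytic subunit of cytochrome c oxidase, had the highest level, with a median of 7666 and a range of 7464 to 9992 CPM per kb, although part of it lies in the copied stretch. mt-Cytb, the cytochrome b of complex III, followed at 4157 (3933 to 5480). mt-Nd1 and mt-Nd2, membrane subunits of complex I, lay at 3527 (3090 to 4178) and 3525 (3314 to 4625). The ranges of mt-Cytb, mt-Nd1 and mt-Nd2 overlap. The genes share their libraries, so this overlap does not settle their order, which was not compared library by library. mt-Nd5 and mt-Nd6 had medians of 1572 and 1010 CPM per kb, and their ranges of 1416 to 1869 and 884 to 1168 did not overlap. mt-Nd4 was counted at 1900, but 63.6% of its length lies in the identical copy. Reads that map to several places were not counted, so its place in the order cannot be read from this value.

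The 5 genes that lie wholly in the copied stretch had medians of 19.5 to 99.9 CPM per kb. The 8 tested genes outside it had medians of 149 to 4157, so the 2 sets did not overlap. mt-Atp8, with a median of 6.25 CPM per kb, was the lowest of the 16 and rested on 978 reads over all 17 libraries. Reads that match both a gene and its copy, or that span mt-Atp8 and mt-Atp6, were not counted, so levels of these 6 genes, and those of mt-Nd4 and mt-Co1 in part, cannot be compared with those of the other mitochondrial genes. The fold changes of these genes rest on the reads that were counted, and the part of uncounted reads in them was not tested. Both rRNA genes were also low, with medians of 175 CPM per kb for mt-Rnr1 (the small ribosomal subunit) and 149 for mt-Rnr2 (the large subunit). Whether the libraries were made by poly(A) selection or by rRNA depletion is not given in the sources used here.

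**Figure D1:**
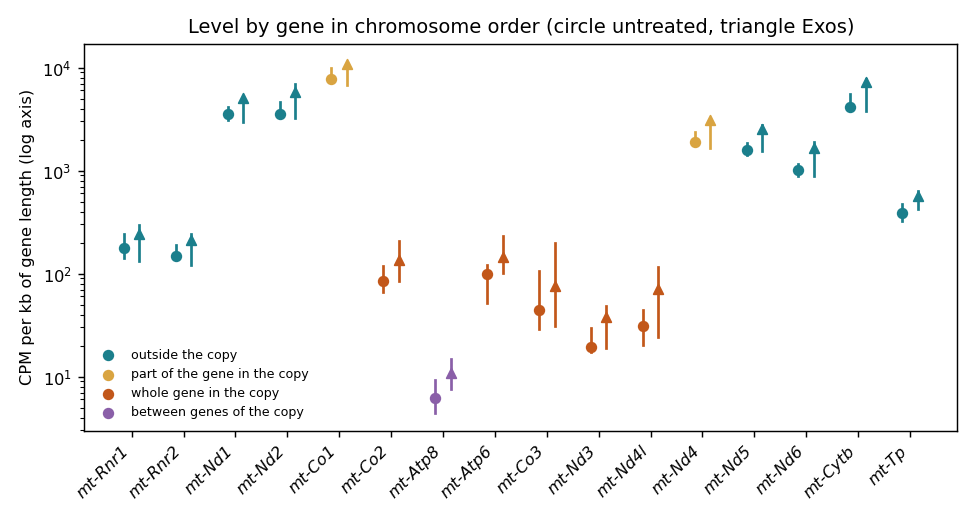
Level of the 16 tested mitochondrially encoded genes in chromosome order, as CPM per kb of gene length on a log axis, with medians as circles (7 untreated libraries without 3 and 9) or triangles (8 UCMSC-Exos libraries) and lines from the lowest to the highest library. Colour gives the place of the gene against the chromosome 1 copy, and the 5 genes wholly inside it have untreated medians of 19.5 to 99.9, below the 149 to 4157 of the 8 genes outside.

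The share of all counted reads that fell in mitochondrial genes was 3.35% ± 1.60 (SD, n = 9) in untreated HFD and 4.10% ± 0.438 (SD, n = 8) in UCMSC-Exos. The untreated values ran from 0.320% in library 3 to 6.67% in library 9, with a median of 3.23%, and the 7 others lay between 3.19% and 3.75%. The treated values ran from 3.20% in library 9 to 4.64%, with a median of 4.17%, and the 7 others lay between 3.94% and 4.64%. With untreated HFD 3 and 9 set aside, 7 of 8 treated libraries were above all 7 untreated ones, and UCMSC-Exos 9 fell among them. The means were then 3.30% ± 0.202 (SD, n = 7) and 4.10% ± 0.438. No test was made of this share, which sums over the genes described.

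**Figure D2:**
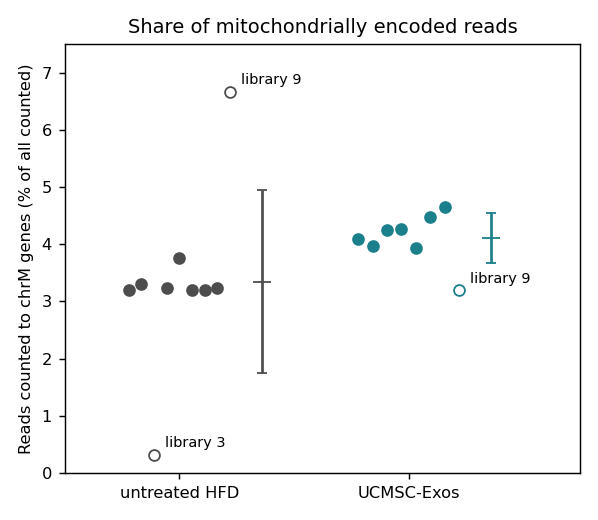
Percent of all counted reads assigned to mitochondrially encoded genes, 1 point per library, with the mean and SD of each group beside its points. Open points are the libraries that stand apart from the rest of their group in cell type markers. Untreated library 3 (0.320%) and untreated library 9 (6.67%) lie below and above every treated library.

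In the fit of all 17 libraries by edgeR's quasi-likelihood test, none of the 16 genes passed an adjusted p of 0.05, and 3 had an unadjusted p under 0.05 (mt-Atp8, mt-Nd3 and mt-Nd6). DESeq2's Wald test passed 2, mt-Atp8 and mt-Nd3, with adjusted p = 0.0274 and 0.0346, where it called 12.3% of all genes higher. limma's voom with quality weights, which gave untreated HFD 3 and 9 and UCMSC-Exos 9 low weights, passed all 16 and called 22% of all genes higher. Over all genes 20.2% passed in the edgeR fit, 9.73% higher and 10.4% lower. All 16 log2 fold changes were above 0, from 0.13 (mt-Rnr2) to 0.85 (mt-Atp8), and the median of the 13 protein-coding genes was 0.51, where the median of all genes tested was -0.02. The lowest adjusted p values in edgeR's fit were 0.0661 (mt-Atp8) and 0.0679 (mt-Nd3). For 12 of the 16 genes untreated HFD 9 was above every treated library.

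Without untreated HFD 3 and 9, 13 of the 16 genes rose in UCMSC-Exos and none fell. In that fit 10.9% of all genes tested were called higher and 9.74% lower. The 13 are 12 of the 13 protein-coding genes and mt-Tp. With 3 surrogate variables in the fit of the same libraries 7 passed, beside 6.18% of all genes called higher, and the median log2 fold change of the protein-coding genes was 0.30. Those 7 are mt-Nd1, mt-Nd2, mt-Nd4, mt-Nd5, mt-Cytb, mt-Atp8 and mt-Tp. mt-Nd3, mt-Nd4l, mt-Nd6, mt-Co1, mt-Co2 and mt-Atp6 did not pass there, with adjusted p values of 0.0528 (mt-Nd6) to 0.411 (mt-Nd4l) by edgeR. Without surrogate variables the protein-coding median was 0.64, and the median of all genes was 8.46e-05. With no scaling factor in the fit of the same libraries these medians were 0.46 and -0.16. There 11 of the 16 genes passed, beside 767 of 16229 genes called higher. The library on the treated side that differed, UCMSC-Exos 9, was below or near the untreated level for most genes, at 70.5% to 148% of the untreated median. Without it as well 15 of 16 passed, all but mt-Co3, beside 19.6% of all genes called higher. Leaving out a treated library that was low for most of these genes favours a rise, so the larger number is no added support.

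**Figure D3:**
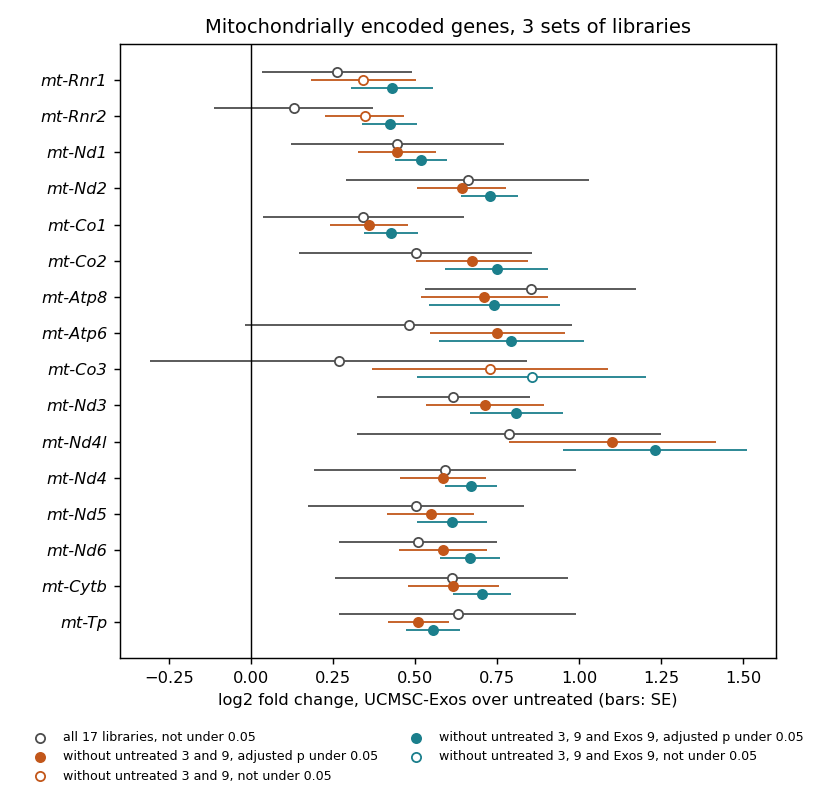
Log2 fold change of UCMSC-Exos over untreated HFD with its standard error for the 16 tested genes in chromosome order, from edgeR's quasi-likelihood fit, with all 17 libraries (grey), without untreated 3 and 9 (orange) and without untreated 3 and 9 and UCMSC-Exos 9 (teal). Filled points have an adjusted p under 0.05. The numbers of filled points are 0, 13 and 15, and every estimate lies above 0.

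Complex I, which takes electrons from NADH, has 7 mitochondrially encoded subunits, all from the mt-Nd genes. None passed with all libraries and all 7 passed without untreated HFD 3 and 9, with log2 fold changes of 0.44 to 1.10. Among them mt-Nd3 and mt-Nd4l lie wholly in the copied stretch and rest on 5922 and 9075 counted reads over all libraries. mt-Nd2, part of the proton-pumping membrane arm, was at 197, 3659 and 6966 CPM (lowest, median and highest) in the 9 untreated libraries and at 3364, 6042 and 7120 CPM in the 8 treated ones. The 7 untreated libraries other than 3 and 9 lay between 3440 and 4801 CPM, below 7 of the 8 treated libraries and above UCMSC-Exos 9. The log2 fold change was 0.66 with an SE of 0.37 and an adjusted p of 0.207 with all libraries, and 0.64 with an SE of 0.14 and an adjusted p of 0.00484 by edgeR without the pair.

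mt-Nd4, another membrane arm subunit, had 94.7, 2618 and 5207 CPM in the untreated libraries and 2285, 4257 and 4484 CPM in the treated ones. Its range over the 7 untreated libraries was 2411 to 3288 CPM, and again 7 of 8 treated libraries lay above it. edgeR gave a log2 fold change of 0.58 with an SE of 0.13 and an adjusted p of 0.00633 without untreated HFD 3 and 9. mt-Nd5, the longest gene of the set, had 306, 2867 and 6335 CPM untreated and 2838, 4618 and 5012 CPM treated. The 7 untreated libraries reached 3410 CPM, and 6 of 8 treated libraries exceeded this, with UCMSC-Exos 6 and 9 inside the untreated range. Its log2 fold change without the pair was 0.55 (SE 0.13, adjusted p = 0.00987, edgeR).

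mt-Nd6 had 174, 524 and 1136 CPM in the untreated libraries and 458, 850 and 976 CPM in the treated ones. The 7 untreated libraries lay between 459 and 606 CPM, so that 7 treated libraries were above them and UCMSC-Exos 9 was just below. Its log2 fold change was 0.51 (adjusted p = 0.136, edgeR) with all libraries and 0.58 (SE 0.13, adjusted p = 0.00724) without the pair. Its estimate lies beside those of mt-Nd5 (0.55) and mt-Nd4 (0.58) from the opposite strand, and differences between genes were not tested.

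mt-Nd3, a small subunit at the hinge of the 2 arms of complex I, was counted at 3.83, 6.79 and 16.5 CPM untreated and 6.61, 13.2 and 16.7 CPM treated. Without untreated HFD 3 and 9 its untreated range was 6.08 to 10.3 CPM, below 7 treated libraries. The log2 fold change was 0.62 with an adjusted p of 0.0679 for all libraries and 0.71 (SE 0.18) with an adjusted p of 0.0128 without the pair, both by edgeR. mt-Nd1 had 303, 3375 and 6313 CPM untreated and 2830, 4804 and 5051 CPM treated, and rose by 0.44 (adjusted p = 0.0167) in that same fit. Its 7 untreated libraries reached 3998 CPM, and 7 treated libraries were above them. mt-Nd4l, a small membrane subunit, rose by 1.10 (SE 0.32, adjusted p = 0.0254), the highest estimate of the 16. Its treated libraries ran from 7.20 to 34.4 CPM, and it lost its call when untreated HFD 6, untreated HFD 7 or UCMSC-Exos 2 was left out as well (adjusted p of 0.0521, 0.0540 and 0.0527).

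mt-Cytb, the single mitochondrial subunit of complex III, was at 343, 4756 and 9966 CPM in the untreated libraries and 4334, 8227 and 8846 CPM in the treated ones. The 7 untreated libraries lay between 4500 and 6269 CPM, and 7 of 8 treated libraries were higher. Its log2 fold change was 0.61 with an adjusted p of 0.224 for all libraries and 0.62 (SE 0.14) with an adjusted p of 0.00665 without untreated HFD 3 and 9, by edgeR.

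Complex IV, cytochrome c oxidase, has 3 mitochondrial subunits, of which mt-Co1 and mt-Co2 passed without untreated HFD 3 and 9 and mt-Co3 did not. mt-Co1 was at 1515, 11840 and 24780 CPM untreated and 10510, 16730 and 17660 CPM treated. The 7 untreated libraries reached 15440 CPM, and 6 treated libraries exceeded this. Its log2 fold change without the pair was 0.36 (SE 0.12, adjusted p = 0.0424, edgeR), the smallest of the 13 protein-coding genes. That call rests on the libraries chosen: when each of the 15 was left out in turn it remained in 2 fits, without untreated HFD 5 and without UCMSC-Exos 9.

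mt-Co2, which receives electrons from cytochrome c, was counted at 9.83, 57.7 and 174 CPM untreated and 58.1, 93.2 and 141 CPM treated. The 7 untreated libraries ran from 45.4 to 81.6 CPM, and 5 treated libraries lay above them. The log2 fold change was 0.67 (SE 0.17, adjusted p = 0.0136, edgeR) without the pair. mt-Co3 had a log2 fold change of 0.73 with an SE of 0.36 and an adjusted p of 0.156 in that fit, and its treated libraries spread from 24.4 to 156 CPM.

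ATP synthase has 2 mitochondrial subunits, mt-Atp6, which forms part of the proton channel, and the small mt-Atp8. Without untreated HFD 3 and 9 both rose, with log2 fold changes of 0.75 and 0.71 and adjusted p values of 0.0207 and 0.0183 by edgeR. mt-Atp6 was at 2.26, 68.0 and 243 CPM untreated and 68.9, 99.1 and 158 CPM treated, and 6 treated libraries lay above the 7 untreated ones. mt-Atp8 had 0.0870, 1.28 and 1.89 CPM untreated and 1.54, 2.23 and 3.06 CPM treated, so that 6 of 8 treated libraries were above all 9 untreated ones. In counts this is 3 to 97 reads per library, the thinnest of the tested genes.

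Of the 2 rRNA genes neither passed without untreated HFD 3 and 9. mt-Rnr1, the higher of them per kb, was at 78.0, 167 and 367 CPM untreated and 125, 233 and 282 CPM treated. Its log2 fold change was 0.34 (SE 0.16, adjusted p = 0.130, edgeR), and 4 of 8 treated libraries lay above the 7 untreated ones, whose highest was 232 CPM. mt-Rnr2 was at 141, 235 and 718 CPM untreated and 194, 333 and 383 CPM treated, with a log2 fold change of 0.35 (SE 0.12, adjusted p = 0.0503). Both passed when UCMSC-Exos 9 was left out too, at 0.43 and 0.42 with adjusted p values of 0.0122 and 0.000692, and mt-Rnr2 also when untreated HFD 1 or 5 was left out in its place. The rRNA estimates were below those of all 13 protein-coding genes in the fit without untreated HFD 3 and 9, and whether the classes differ was not tested.

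mt-Tp was at 0.957, 25.9 and 32.0 CPM in the untreated libraries and 28.4, 38.1 and 42.5 CPM in the treated ones. It is the member whose groups were most nearly apart with all libraries kept, since 7 of 8 treated libraries lay above all 9 untreated ones. The log2 fold change was 0.63 (SE 0.36) with an adjusted p of 0.221 for all libraries, and 0.51 (SE 0.09) with an adjusted p of 0.00172, the smallest of the 16, without untreated HFD 3 and 9 by edgeR. Without strand in the counting, mature mt-Tp cannot be told apart from longer transcripts of either strand that cover it.

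**Figure D4:**
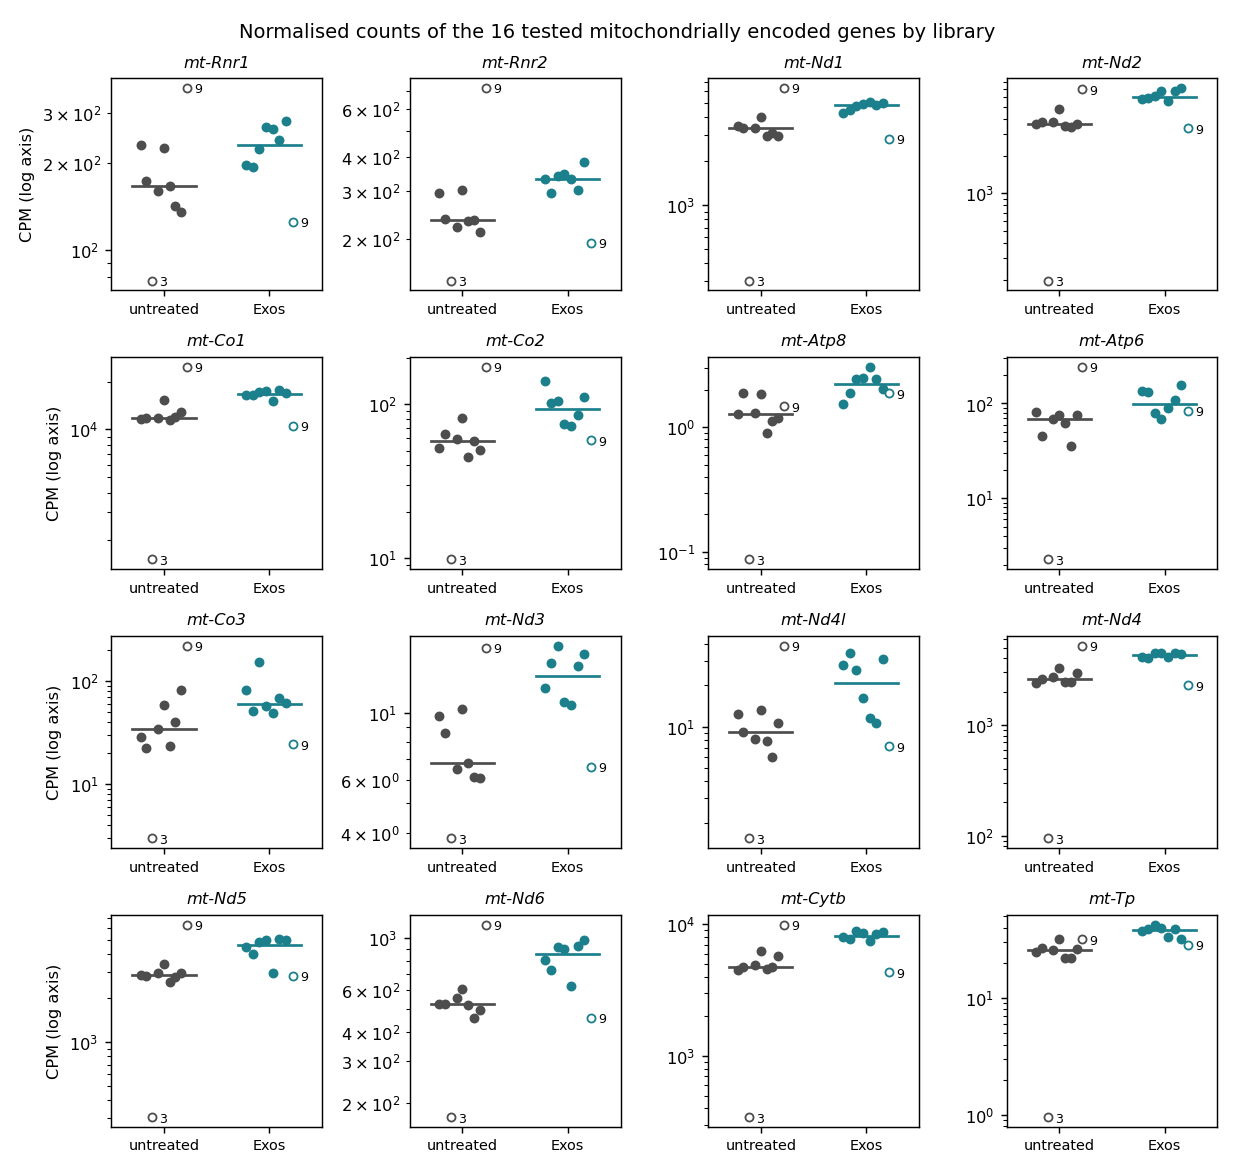
CPM of each of the 16 tested mitochondrially encoded genes by library on log axes that differ between panels, with a line at the group median. Open numbered points are untreated libraries 3 and 9 and UCMSC-Exos library 9. Untreated library 3 is the lowest point in every panel, and the filled treated points lie above the filled untreated points in 7 panels. How many of all genes separate in this way was not counted. In the fit of the libraries with filled points 19.6% of all genes were called higher.

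The pair of untreated libraries moved in opposite directions, and not by the same factor for each gene. In untreated HFD 3, the library with pancreatic markers, 12 of the 16 genes stood under 20% of the median of the 7 other untreated libraries. mt-Atp6, mt-Nd4, mt-Tp and mt-Nd2 were at 3.33%, 3.62%, 3.70% and 5.38%. By contrast mt-Rnr2 stood at 60.0%, mt-Nd3 at 56.4%, mt-Rnr1 at 46.6% and mt-Nd6 at 33.3%. The rRNA genes made up 6.91% of mitochondrial reads in this library, against 1.08% to 1.77% in the 8 other untreated libraries. Nuclear-retained long RNAs, a list of 8 genes with Malat1 and Neat1, summed to 1293 CPM there, against 659 to 907 CPM in the 7. Hepatocyte markers summed to 57240 CPM, inside the range of 44280 to 60100 CPM of the 7, but Alb made up most of this sum. Alb was at 43320 CPM against a median of 29410 CPM in the 7. Every other marker of the list was below its median in the 7, such as Cyp2e1 (1502 against 3501 CPM) and Hnf4a (398 against 529 CPM). The part of the pancreatic RNA or of RNA quality in these values was not tested.

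In untreated HFD 9, the library with skeletal muscle markers, 14 of 16 genes stood above 150% of the median of the 7. mt-Co3 and mt-Nd4l were highest, at 640% and 427%, and mt-Atp6 and mt-Rnr2 followed at 357% and 306%. mt-Atp8 and mt-Tp were at 116% and 124%. Hepatocyte markers were at 39950 CPM, below the 7. The part of the muscle RNA in these values was not tested.

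**Figure D5:**
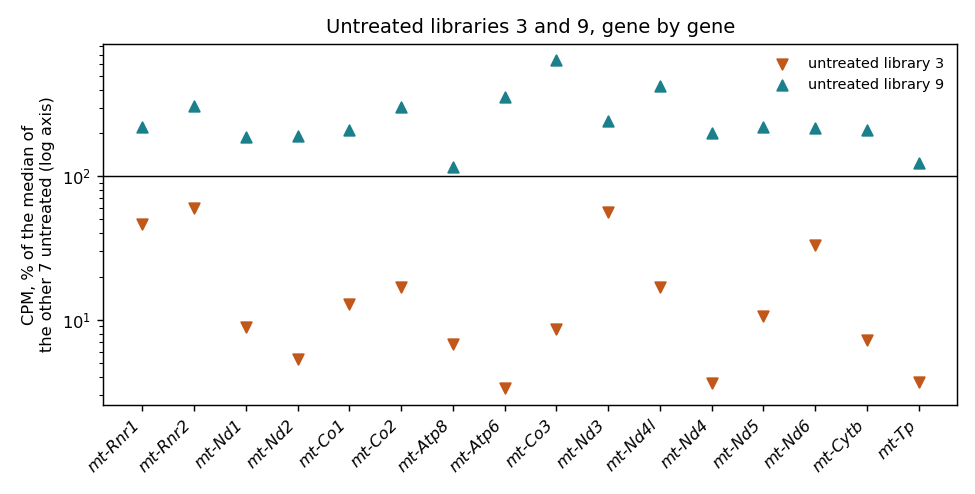
CPM of the 16 genes in untreated libraries 3 and 9 as a percent of the median of the 7 other untreated libraries, on a log axis with a line at 100%. Untreated library 3 runs from 3.33% (mt-Atp6) to 60.0% (mt-Rnr2) and untreated library 9 from 116% (mt-Atp8) to 640% (mt-Co3).

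The make-up of the mitochondrial reads is given as a description, since shares of 1 whole move against each other, and it was not tested. mt-Co1 took 39.7% ± 0.720 (SD, n = 7) of them in untreated HFD without 3 and 9 and 36.3% ± 1.25 (SD, n = 8) in UCMSC-Exos, with ranges of 38.6% to 40.5% and 34.5% to 38.7%. mt-Nd2 took 12.1% ± 0.425 and 13.4% ± 0.657, and mt-Cytb took 16.1% ± 0.810 and 17.5% ± 0.706. mt-Nd1 took 10.6% ± 0.785 and 10.3% ± 0.796. The ranges of the groups overlapped for all 4 genes. With UCMSC-Exos 9 set aside too, mt-Co1 reached at most 37.3% in treated libraries, below the untreated lowest of 38.6%. mt-Nd2 was then at least 12.8% treated, above the untreated highest of 12.4%. The ranges of mt-Cytb and mt-Nd1 still overlapped. Over all 9 untreated libraries mt-Co1 took 40.5% ± 2.77 and mt-Nd2 11.3% ± 1.98.

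Over the 15 libraries without untreated HFD 3 and 9, each gene's log2 level was set against the summed level of the other mitochondrial messenger RNAs. For the genes outside the copied stretch and in part of it, Pearson's r was 0.92 to 0.99 for the protein-coding genes, with mt-Cytb, mt-Nd4 and mt-Nd2 at 0.99. It was 0.90 for mt-Tp, 0.87 for mt-Rnr2 and 0.77 for mt-Rnr1. For mt-Co2, mt-Atp8, mt-Atp6, mt-Co3, mt-Nd3 and mt-Nd4l it was 0.64 to 0.88. These values include the difference between groups and share each library's scaling, and they are given as a description.

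The 7 pseudogenes of the chromosome 1 copy were counted at 1893 (Gm28438) to 34475 (Gm10925) reads over all libraries. Given the near identity of the sequences, it cannot be told whether these reads come from the nuclear copy or from the mitochondrial transcripts. With all libraries Gm28438, the copy of mt-Nd3, rose with a log2 fold change of 0.82 (SE 0.26, adjusted p = 0.0317, edgeR), and the other 6 did not pass. Without untreated HFD 3 and 9, 5 of 7 rose, beside 10.9% of all genes called higher. Among the 5 were Gm28661 (copy of mt-Co2) at 1.20 and Gm28439 (copy of mt-Nd4) at 0.82. Gm28437 and Gm29216, the copies of mt-Co3 and mt-Co1, had log2 fold changes of -0.34 and -0.16 that did not pass (adjusted p = 0.57 and 0.78, edgeR).

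Nuclear genes that make and use these transcripts were taken as lists. The shares of all genes called, to be read beside each list, were 9.73% higher and 10.4% lower with all libraries. Without untreated HFD 3 and 9 they were 10.9% and 9.74%. The list of 23 genes that transcribe or copy mitochondrial DNA had 4 higher and 0 lower with all libraries. Without untreated HFD 3 and 9 it had 2 and 0, and its median log2 fold changes were 0.08 and 0.13. Tfb2m, which opens the promoter for the mitochondrial RNA polymerase, averaged 20.6 ± 2.53 CPM (SD, n = 9) in untreated and 25.4 ± 3.42 CPM (SD, n = 8) in treated libraries, with a log2 fold change of 0.30 (SE 0.09, adjusted p = 0.0224, edgeR). Slc25a33, a carrier of pyrimidine nucleotides into mitochondria, rose by 0.48 with an adjusted p of 0.0223 in the same fit. Ssbp1, which binds single-stranded mitochondrial DNA, rose by 0.20 with an adjusted p of 0.0452, which became 0.0625 without untreated HFD 3 and 9.

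Of 36 tested genes that cut, modify or stabilise mitochondrial RNA, 1 rose and 2 fell with all libraries. Hsd17b10, a subunit of the enzyme that cuts the 5′ ends of mitochondrial tRNAs, rose by 0.46 (adjusted p = 0.0325, edgeR). Trub2, a pseudouridine synthase, fell by 0.38 (adjusted p = 0.0106), as did Mrm1, an rRNA methyltransferase, by 0.50 (adjusted p = 0.0425). Without the pair 3 rose and 1 fell. Hsd17b10 and Mrm1 then had adjusted p values of 0.0773 and 0.0968. Of 23 genes on the list of enzymes that charge or edit mitochondrial tRNAs, 2 rose and 2 fell in either fit, with Nars2 (asparagine) at 0.55, Sars2 (serine) at 0.29 and Mars2 (methionine) at -0.36 among them, adjusted p = 0.00174, 0.0213 and 0.0143 with all libraries. Of 88 ribosomal proteins and translation factors of mitochondria, 8 rose and 0 fell in either fit, a share near the 9.73% and 10.9% of all genes called higher. The smallest p was that of Mrrf, the ribosome recycling factor, at 0.31 (adjusted p = 0.0128). Mrps5 of the small subunit and Mtif2, the initiation factor that brings the first tRNA, followed at 0.26 and 0.22 (adjusted p = 0.0188 and 0.0260).

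The nuclear partners of the mitochondrial subunits gave 0 calls with all libraries in complex I, III, IV and ATP synthase, of 36, 9, 12 and 14 tested genes, by edgeR. At an unadjusted p under 0.05 there were 6, 1, 1 and 1. Without untreated HFD 3 and 9, 11, 4, 3 and 3 rose and none fell, beside 10.9% of all genes called higher, and the median log2 fold changes were 0.21, 0.23, 0.22 and 0.22. Ndufs8, an iron-sulfur subunit of complex I, rose by 0.31 in that fit (adjusted p = 0.0170), as did Ndufv3 by 0.32 (adjusted p = 0.0402). Cox5a of complex IV rose by 0.31 (adjusted p = 0.0298), and Cox8a had 0.21 and an adjusted p of 0.152. Atp5j and Atp5c1 of ATP synthase rose by 0.25 and 0.28 (adjusted p = 0.0254 for both). Uqcrq and Uqcr11 of complex III had 0.20 and 0.23, with adjusted p values of 0.133 and 0.154. Whether the mitochondrially and nuclear-encoded subunits differ was not tested.

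Among 14 regulators of mitochondrial biogenesis, 2 rose and 1 fell in either fit. Sirt3, the main deacetylase of the mitochondrial matrix, went from 51.8 ± 6.71 to 67.9 ± 8.40 CPM, a log2 fold change of 0.39 (adjusted p = 0.00605, edgeR, all libraries). Gabpa, a transcription factor of nuclear respiratory genes, rose by 0.23 (adjusted p = 0.0230). Perm1, a regulator active in muscle, had 10.8 ± 29.3 CPM untreated and 0.462 ± 0.223 CPM treated. Its log2 fold change went from -4.52 (adjusted p = 0.0227) to -1.14 (adjusted p = 0.0339) when untreated HFD 3 and 9, the latter with muscle markers, were left out. Of 15 chaperones and proteases of mitochondria, 1 rose with all libraries, the protease gene Yme1l1, by 0.24 (adjusted p = 0.0242), and 2 without the pair. Of 8 nuclear-retained long RNAs 0 passed with all libraries and 1 was higher without the pair. Gas5 and Neat1 had log2 fold changes of -0.20 and -0.28 (adjusted p = 0.0947 and 0.372). Of 15 genes with a row on a list meant for RNAs without a poly(A) tail, only H1f0 was tested, at 0.18 (adjusted p = 0.158, edgeR). H1f0 is a histone gene, and these data do not show that its RNA lacks a tail. Its value is therefore not taken to stand for such RNAs.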

How the data were processed

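HISAT2 2.2.1, fastp 1.3.3, Subread 2.0.2, featureCounts and the build mm10 are named per the submitters' processing notes. The deposited counts, per the file headers, are from featureCounts 2.1.1 run on read pairs over GENCODE vM25 exons. Strand was not used, and reads that map to several places or overlap more than 1 gene were not counted. The versions differ and are given as found. The counts are not normalized, and both mates are counted. Of 55401 gene IDs, 54349 matched a symbol. In 17 libraries (9 and 8), 1 per-sample column was not used, because it matched no sample here.

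Counts were fitted in R 4.3.3 with edgeR 4.0.16, using filterByExpr (minimum count of 10), TMM scaling and a robust quasi-likelihood test, two-sided, with Benjamini-Hochberg adjustment over all genes tested and a threshold of 0.05. CPM values use the TMM library sizes of the 17-library fit. Alternatives were other scalings and filters, DESeq2 1.42.0, voom of limma 3.58.1 with quality weights, at most 3 surrogate variables (sva 3.50.0), a replicate block, and leaving out libraries. Fits with no scaling factor, and those that combine another setting with leaving out untreated HFD 3 and 9, were added after seeing the data. The fit was tested on simulated counts whose spread was taken from the libraries without untreated HFD 3 and 9. That test does not cover the spread which those libraries add. The members and the gene lists were chosen with earlier results of these data known.

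All 37 members are accounted for. Values by library are given for at most 8 members of smallest p that passed in either set of libraries, the highest member per kb of each class and mt-Nd6, and in each nuclear list for up to 3 passing members of smallest p, or 2 where none passed. Values of mt-Nd1, mt-Atp6, mt-Atp8 and mt-Rnr2 and of pseudogenes other than Gm28438 were added after they were seen. No pair of libraries agreed within sampling noise. For the closest of 136 pairs (UCMSC-Exos 2 with 3), the median chi-square was 3.95 times that noise.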

Additional observations from a re-analysis of the deposited data

Results flagged for a closer look

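Within each group the lowest or highest library was set against Dixon's criterion on log2 CPM, gene by gene, which chance alone meets in about 1 of 20 groups. The genes share their libraries, so these are not separate events. Untreated HFD 3 lay apart as the lowest of 9 for 11 genes: mt-Nd1 (log2 CPM of 8.24), mt-Nd2 (7.62), mt-Co1 (10.57), mt-Co2 (3.30), mt-Atp8 (-3.52), mt-Atp6 (1.18), mt-Nd4 (6.57), mt-Nd5 (8.26), mt-Nd6 (7.45), mt-Cytb (8.42) and mt-Tp (-0.063). Untreated HFD 9 lay apart as the highest of 9 for mt-Rnr2 (9.49). UCMSC-Exos 9 lay apart as the lowest of 8 for 7 genes: mt-Rnr1 (6.97), mt-Rnr2 (7.60), mt-Nd1 (11.47), mt-Nd2 (11.72), mt-Co1 (13.36), mt-Nd4 (11.16) and mt-Cytb (12.08). The cell type markers that move with these 3 libraries are given with the results, and their part was not tested.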

How the results depend on the processing

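The number of mitochondrially encoded genes passing, 0 with all 17 libraries, was also 0 under RLE or upper quartile scaling, no filter, a filter of 1 CPM in 8 samples, and no scaling factor. It was 1 with scaling from genes outside chrM, 2 with DESeq2, 16 with voom and quality weights, 1 with 3 surrogate variables and 2 without UCMSC-Exos 9, and 0 to 4 when each library was left out in turn (3 without untreated HFD 3, 4 without untreated HFD 9). In the same order, all genes called higher were 2008, 2003, 3577 and 694 of 16238, 2456 of 16326, 1942 of 16108 and 1435 of 16089. The number of mitochondrially encoded genes passing was 13 without untreated HFD 3 and 9 and 15 without UCMSC-Exos 9 too. Without untreated HFD 3 and 9 it was 11 with no scaling factor, 14 with RLE scaling, 13 with the replicate block and 7 with 3 surrogate variables. Beside these, all genes called higher were 767 of 16229, 1857 of 16229, 2297 of 16068 and 1003 of 16229. The cause of these differences was not tested. Voom gave untreated HFD 3 a weight of 0.144, UCMSC-Exos 9 0.217 and untreated HFD 9 0.432. With no scaling factor the median of all genes moved from -0.02 to -0.19, that of the protein-coding members from 0.51 to 0.31, and the split of all calls from 1580 higher and 1694 lower to 737 and 2961. With scaling from genes outside chrM the split was 2008 and 1437.

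All genes passing, 3274, became 7711 with voom, 1549 with surrogate variables, 5823 without UCMSC-Exos 9, 6716 without it and untreated HFD 3 and 9, 5027 without untreated HFD 3 and 9 under the block, and 2005 to 5823 when each library was left out. mt-Rnr2 turned to -0.064 with no scaling factor. mt-Co3 turned to -0.042 with 3 surrogate variables, to -0.021 with them and without untreated HFD 3 and 9, and ran from -0.017 (without UCMSC-Exos 3) to 0.91 when each library was left out. With the replicate block 0 members and 3029 genes passed, and the median of protein-coding members was 0.75. The numbers did not pair the samples: of 8 pairs, 2 had a correlation of deviations over 0.1, the range was -0.17 to 0.24, and 1 library was closest to its own number.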
